A study of Mus musculus with 12 samples.

Results

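The nuclear-encoded genes of the mitochondrial respiratory chain were measured in mouse splenic CD4 T cells, and 87 of the 12918 gene symbols listed in the 12 libraries belonged to them. They were chosen by symbol alone, namely Nduf followed by a, b, c, s or v, the Sdh subunits, Uqcr, Cox4 to Cox8, and Atp5. The 87 symbols comprised 39 of complex I, 8 of its assembly factors (Ndufaf), 4 of complex II, 7 of complex III, 13 of complex IV and 16 of complex V. Of these, 83 reached 1 FPKM or more in 3 libraries or more, the filter used, and entered the tests with 9743 loci in all. FPKM counts fragments relative to transcript length in kilobases and to the number of fragments mapped in a library. Cox4i2, Ndufa4l2, Uqcrfs1 and the pseudogene Cox7c-ps1 did not pass and were not tested. The highest of them in any library was Uqcrfs1 at 1.82 FPKM in KIKO naive 2. Uqcrfs1 was not listed in the other libraries, which does not show that its transcript was absent.

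The libraries fell into 4 groups of 3: KIKO activated, KI activated, KIKO naive and KI naive. Activated cells had been cultured for 16 h with anti-CD3/CD28 beads, a stand-in for antigen and its second signal, and naive cells had not. The genotypes appear in the labels as KI and KIKO with no further detail: the gene altered, the promoter, the strain and the age of the mice are not stated there, and KI is part of both names. CD4 is missing from the titles of all 3 KIKO activated libraries and present in those of the other 9, although the source label, splenic CD4 T cell, is the same for all 12. The series concerns a faulty proteasome in T cells, and the comparisons ask how KIKO cells differ from KI cells in each state and how each genotype responds to activation. Nothing in the labels says that the libraries of a group came from separate animals, so p-values measure the spread between these libraries, which may be technical.

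The respiratory chain passes electrons from NADH (complex I) and succinate (complex II) by way of ubiquinone to complex III, cytochrome c and complex IV, where oxygen is reduced. Complexes I, III and IV pump protons, and complex V, the ATP synthase, uses the gradient to make ATP. A few core subunits are encoded in the mitochondrial genome, and the other subunits come from nuclear genes. Those found by the symbols above are described here, so the counts need not cover every subunit of a complex. Cyc1 of complex III, for example, falls outside these symbols. T cells that leave rest build more mitochondrial protein as they grow.

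Values of the whole series bear on the results in these ways. The summed level of the T cell markers listed was 495 to 739 FPKM in KIKO activated and 1050 to 1240 FPKM in KI activated libraries, and 846 to 992 FPKM in KIKO naive and 1140 to 1330 FPKM in KI naive libraries. Of 10 T cell markers 8 were listed, among them Cd3e, Cd3d, Cd3g and Cd4 in every library. Lck and Cd28 were not listed under these names. A name that is not listed does not show a level of 0, since some loci carry other names. The 7 listed of 8 myeloid markers summed to 206 FPKM in KIKO naive 2 and 170 FPKM in KIKO activated 2, led by S100a9, S100a8 and Lyz2. In the other 10 libraries they summed to 1.14 to 7.82 FPKM, and Itgam was not listed by name. The 2 listed of 6 B cell markers summed to at most 2.78 FPKM, and Ms4a1, Pax5 and Blnk were not listed by name. NK cell markers (5 of 6 listed) summed to 3.09 to 11.6 FPKM in KIKO activated and 1.18 to 2.22 FPKM in KI activated libraries, and to 11.1 to 21.1 FPKM in KIKO naive and 12.9 to 19.4 FPKM in KI naive libraries. Of the CD8 T cell genes, Cd8a stayed at or below 0.591 FPKM, while Cd8b1 had 9.24, 8.39 and 10 FPKM in KIKO activated, 11.1, 10.9 and 12.8 FPKM in KI activated, 12.5, 16.1 and 12.6 FPKM in KIKO naive and 6.51, 7.38 and 8.12 FPKM in KI naive libraries. Cd8b1 was thus higher in every KIKO naive than in any KI naive library. Erythroid genes (4 of 6 listed) summed to at most 3.36 FPKM. KIKO naive 2 also listed the fewest transcript events, 85319 against 100188 to 112679. In these bulk samples, fewer cells of a type and less RNA per cell cannot be told apart. The part of these marker levels in the results was not tested; counts without the 2 libraries high in myeloid genes stand beside the results below.

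Promoter sequences are shown for the 6 genes at the ends of the main comparison: the 3 that were higher in KIKO activated than in KI activated cells (Cox6b2, Cox7a2l and Ndufa6), then the 3 with the largest falls (Atp5e, Uqcr11 and Ndufb7). They are RefSeq windows of 300 bases (250 before and 50 after the annotated start, build GRCm38.p6), 5′ to 3′ on the gene's strand, and capitals mark matches to CATGCGC (the core of the NRF1 site), CCGGAAG (the core of ETS sites such as those of GABP), AAGATGG (YY1) or CACGTG (the E-box bound by Myc and its partners) on either strand.
Cox6b2, chr7:4753045-4753344, minus strand: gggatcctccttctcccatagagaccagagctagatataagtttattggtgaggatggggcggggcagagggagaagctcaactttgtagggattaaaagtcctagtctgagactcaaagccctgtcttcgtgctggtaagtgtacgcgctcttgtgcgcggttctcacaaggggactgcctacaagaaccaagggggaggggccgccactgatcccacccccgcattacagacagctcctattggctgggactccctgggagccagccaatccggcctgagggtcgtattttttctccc
Cox7a2l, chr17:83514284-83514583, minus strand: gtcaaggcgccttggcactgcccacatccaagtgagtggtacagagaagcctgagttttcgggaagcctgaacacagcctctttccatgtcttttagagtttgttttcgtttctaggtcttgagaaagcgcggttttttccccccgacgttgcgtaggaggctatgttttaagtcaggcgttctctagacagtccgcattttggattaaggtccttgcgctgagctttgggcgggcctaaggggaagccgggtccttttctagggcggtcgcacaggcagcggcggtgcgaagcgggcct
Ndufa6, chr15:82354242-82354541, minus strand: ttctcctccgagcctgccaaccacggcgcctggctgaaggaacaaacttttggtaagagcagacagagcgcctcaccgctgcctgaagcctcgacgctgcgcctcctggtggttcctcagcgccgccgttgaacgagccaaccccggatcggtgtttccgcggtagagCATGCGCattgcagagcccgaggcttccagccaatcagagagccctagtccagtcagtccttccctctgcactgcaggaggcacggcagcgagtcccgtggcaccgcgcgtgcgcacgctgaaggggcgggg
Atp5e, chr2:174464052-174464351, minus strand: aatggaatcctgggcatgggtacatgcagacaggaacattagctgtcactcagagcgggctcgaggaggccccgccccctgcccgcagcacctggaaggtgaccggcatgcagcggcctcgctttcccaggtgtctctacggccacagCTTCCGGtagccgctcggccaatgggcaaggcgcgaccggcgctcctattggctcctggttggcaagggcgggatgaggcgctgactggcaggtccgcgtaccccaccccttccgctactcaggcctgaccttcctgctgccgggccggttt
Uqcr11, chr10:80406772-80407071, minus strand: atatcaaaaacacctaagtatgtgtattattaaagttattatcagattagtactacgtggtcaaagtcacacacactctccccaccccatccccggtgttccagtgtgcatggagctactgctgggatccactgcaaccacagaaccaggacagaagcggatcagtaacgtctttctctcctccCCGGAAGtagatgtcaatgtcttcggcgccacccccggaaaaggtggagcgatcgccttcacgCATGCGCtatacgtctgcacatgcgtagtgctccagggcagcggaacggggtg
Ndufb7, chr8:83566508-83566807, plus strand: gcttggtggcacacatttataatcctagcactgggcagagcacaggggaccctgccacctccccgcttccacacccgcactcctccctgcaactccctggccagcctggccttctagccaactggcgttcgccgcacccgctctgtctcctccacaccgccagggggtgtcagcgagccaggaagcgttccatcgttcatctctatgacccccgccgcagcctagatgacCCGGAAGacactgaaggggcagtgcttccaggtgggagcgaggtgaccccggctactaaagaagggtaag
The windows of Cox6b2 and Cox7a2l held none of these letter runs. The Ndufa6 window held the NRF1 core 82 bases before the start. Atp5e and Ndufb7 held the ETS core, 102 and 20 bases before the start, and Uqcr11 held the ETS core 66 bases and the NRF1 core 3 bases before it. The marked runs do not overlap each other. RefSeq windows were found for 73 of the 87 members, 78 windows in all. CATGCGC was present in 17.9% of member windows, in 7.38% of the windows of tested genes and in 3.91% of all 32851 windows. CCGGAAG was present in 23.1%, 19.7% and 8.86% of the same windows, AAGATGG in 15.4%, 7.9% and 6.34%, and CACGTG in 8.97%, 10.5% and 7.15%. A match is a description of letters, not of a bound site.

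Activated KIKO cells had lower respiratory chain transcripts than activated KI cells, and 3 genes went the other way. Genes were called lower in each complex, though in complex III no more often than over all loci. The summed level of all members was 6282, 5879 and 5493 FPKM in the KIKO activated libraries, against 7581, 7899 and 8187 FPKM in the KI activated libraries. As a share of the summed level of all loci this was 1.68 to 1.82% in KIKO activated and 2.08 to 2.16% in KI activated libraries, and neither measure overlapped. In naive cells the sums overlapped, at 4358 to 5101 FPKM in KIKO naive and 4286 to 4956 FPKM in KI naive libraries, while the shares did not, at 1.42 to 1.59% in KIKO naive and 1.32 to 1.39% in KI naive libraries.

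**Figure D1:**
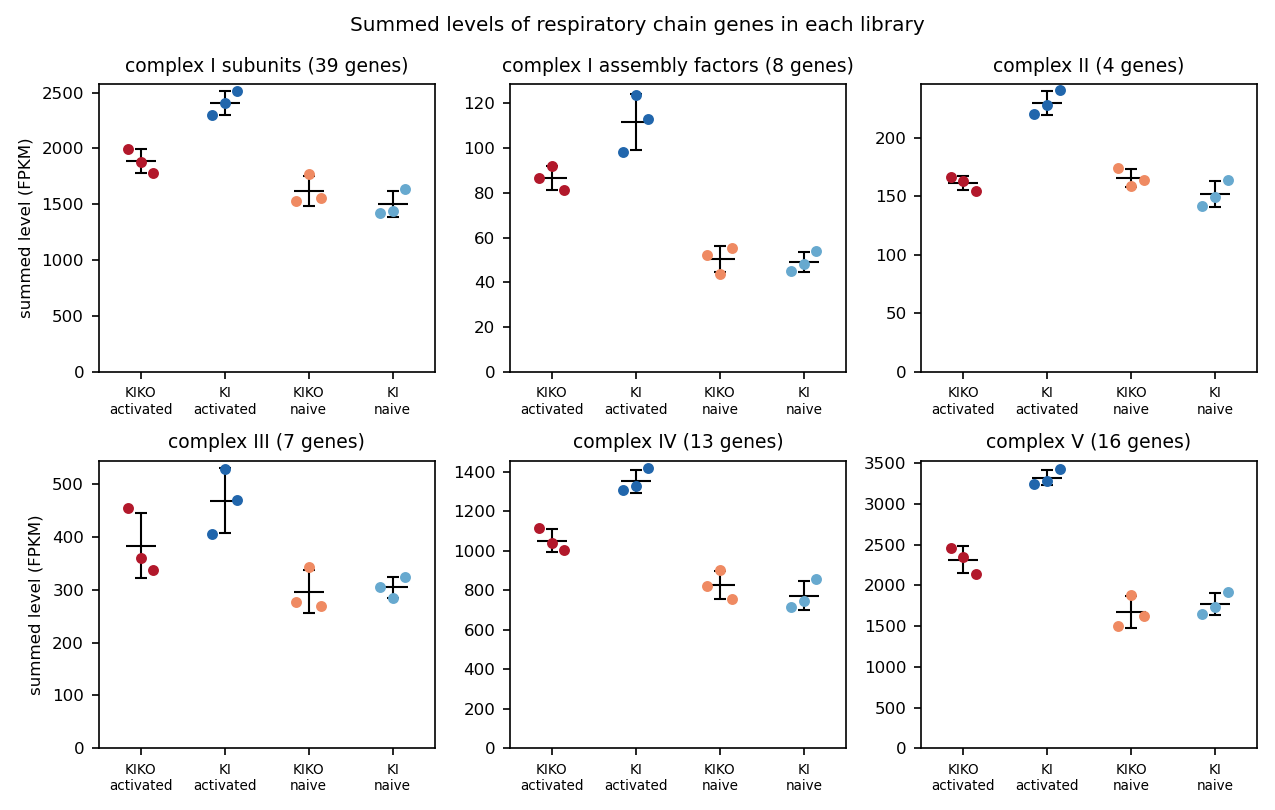
Summed level in FPKM of the respiratory chain genes of each complex, one point per library, with the mean and SD of 3 libraries per group. Complex V summed to 2313 ± 167 FPKM in KIKO activated and 3319 ± 94.7 FPKM in KI activated cells, and complex II to 162 ± 6 FPKM and 230 ± 10.4 FPKM in the same groups.

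Of the 83 genes tested, 46 (55.4%) were lower and 3 were higher in KIKO than in KI activated cells (limma on log2(FPKM + 1), adjusted p under 0.05). Over all 9743 loci, 19.3% were called lower and 20.7% higher in this comparison. The median difference was -0.43 on the log2(FPKM + 1) scale over the members and 0.04 over all loci. Fold changes on this scale understate those of genes with low FPKM. Without the 2 KIKO libraries high in myeloid genes, 49 members were lower and 3 higher. Of the 49 called genes, 24 were called in the same direction under every alternative run, and 29 of the 46 were lower by at least 0.5 log2. Most called genes given below with values per library were picked in part because their groups did not overlap. Non-overlap is thus no separate support for them.

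**Figure D2:**
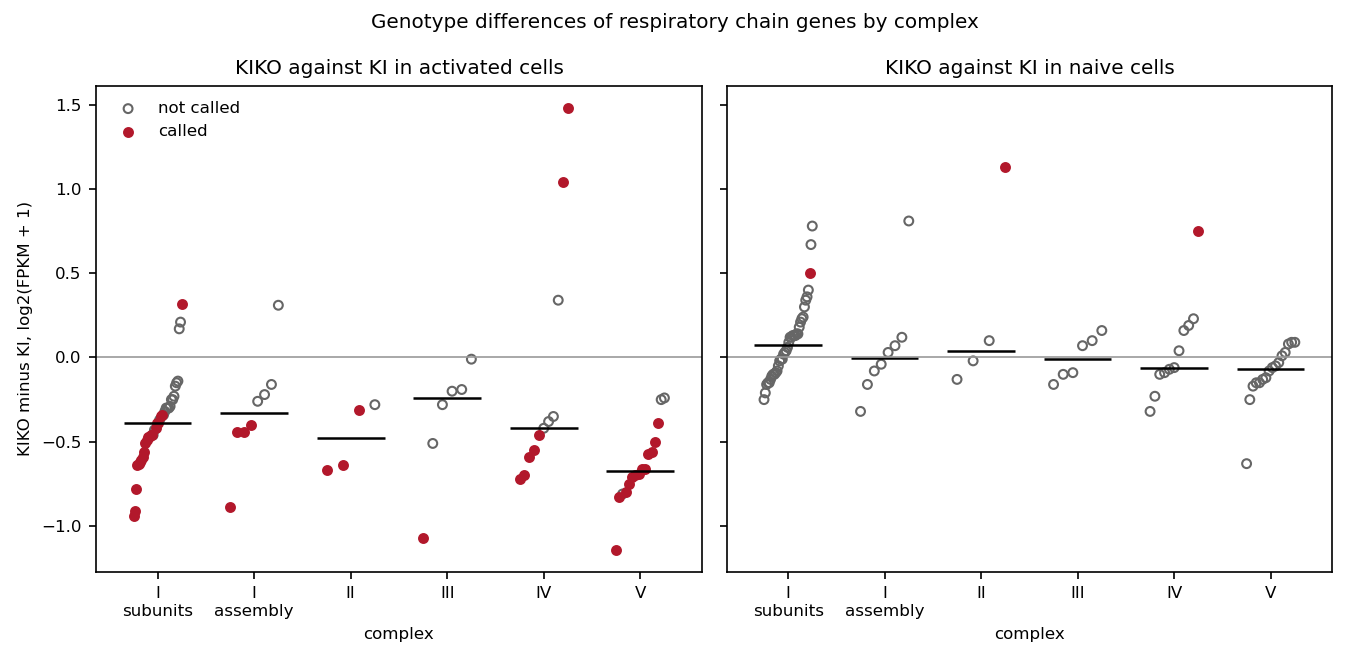
KIKO minus KI difference on the log2(FPKM + 1) scale for each tested gene, by complex, in activated cells (left) and naive cells (right). Filled points passed the test, open points did not, and the horizontal bars are medians; in activated cells the medians lie between -0.67 (complex V) and -0.24 (complex III), and in naive cells between -0.07 and 0.07.

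Complex V showed the lowest median, -0.67, and 13 of its 16 genes were lower in KIKO activated cells. All 5 genes of the F1 head, the catalytic part that turns over ADP, were among them: Atp5a1 (alpha), Atp5b (beta), Atp5c1 (gamma), Atp5d (delta) and Atp5e (epsilon). Atp5b averaged 282 ± 38.8 FPKM in KIKO activated and 414 ± 34.6 FPKM in KI activated cells (SD, n = 3 each), a log2 difference of -0.56 ± 0.11 (SE). Of the 11 genes of the stalk and membrane part 8 were lower. Atp5g1, Atp5h and Atp5mpl were not called, at -0.81, -0.24 and -0.25. Atp5l lost its call in 13 of 23 alternatives. Atp5j lost it in 3 and turned to 0.98 in 1 more. The call of Atp5d was lost in 2, and those of Atp5a1, Atp5g3 and Atp5k in 1 each.

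Atp5e, the epsilon subunit of the head, stood at 71.7, 59.9 and 62.6 FPKM in KIKO activated and 134, 136 and 160 FPKM in KI activated libraries. The groups did not overlap, and the difference was -1.14 ± 0.27 (SE, adjusted p = 0.0059). Atp5md, a small membrane subunit, had 49.1, 58.5 and 43.2 FPKM in KIKO activated libraries, against 76.2, 84.8 and 111 FPKM in KI activated libraries. All 3 KIKO libraries were below all 3 KI libraries, with a difference of -0.83 ± 0.2 (SE, adjusted p = 0.00518). Atp5pb, the peripheral stalk subunit b that holds the head in place, had the smallest p of the set: 84.8, 80.5 and 86.5 FPKM in KIKO activated libraries, against 136, 165 and 142 FPKM in KI activated libraries (difference -0.8 ± 0.1, SE, adjusted p = 5.7e-05). In KIKO naive libraries it had 74.1, 80.4 and 76.5 FPKM, and its rise with activation in KIKO cells, 0.12 ± 0.1 (SE), was not called (adjusted p = 0.318).

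Complex I takes in NADH through a matrix arm of flavin and iron-sulfur subunits and pumps protons through a membrane arm. Of 38 tested subunits 20 were lower and Ndufa6 was higher in KIKO activated cells, with a median of -0.39. The 7 core subunits listed included 5 that were lower (Ndufs1, Ndufs3, Ndufs7, Ndufs8 and Ndufv1). Ndufs8 and Ndufv1 were called under all 23 alternatives; Ndufs3 lost its call in 9, among them leaving out single libraries, Ndufs1 in 2, and Ndufs7 with quantile normalization, and Ndufs7 turned to 0.55 with the smaller of summed starts and summed ends. Ndufv1, which carries the flavin and the NADH site, was lower by -0.62 ± 0.11 (SE, adjusted p = 0.00083). The matrix arm accessory subunits had 4 of 9 lower, and those of the membrane arm 11 of 20. The 38 also hold Ndufa4 and the acyl carrier protein Ndufab1, set apart from these parts, and neither was called. Ndufa4 is counted in complex I by its name alone.

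Ndufb7, a membrane arm subunit facing the intermembrane space, fell furthest in complex I. Its level was 72.1, 68.4 and 61.1 FPKM in KIKO activated libraries, against 120, 130 and 140 FPKM in KI activated libraries (difference -0.94 ± 0.16, SE, adjusted p = 0.00056). The lowest KI activated library lay well above the highest KIKO activated one. Ndufs6, an accessory subunit that binds zinc, had 26, 30.5 and 27.9 FPKM in KIKO activated and 49.7, 52.2 and 59.9 FPKM in KI activated libraries (difference -0.91 ± 0.19, SE, adjusted p = 0.002). Ndufb8, also of the membrane arm, had 38.4, 41 and 37.2 FPKM in KIKO activated libraries, against 71.3, 62.5 and 69.2 FPKM in KI activated libraries (difference -0.78 ± 0.14, SE, adjusted p = 0.00099). The locus that carries this name also covers Sec31b. Its main start, with 36.9 to 40.6 FPKM in KIKO activated and 62.3 to 71.1 FPKM in KI activated libraries, makes up nearly all of the level.

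The assembly factors build complex I and are not part of the finished enzyme. Of the 8 tested, 4 were lower in KIKO activated cells (Ndufaf1, Ndufaf2, Ndufaf4 and Ndufaf7) and none was higher. Ndufaf4 had 6.65, 8.99 and 5.59 FPKM in KIKO activated libraries, against 12.3, 14.9 and 14.4 FPKM in KI activated libraries (difference -0.89 ± 0.15, SE, adjusted p = 0.00063). Ndufaf2, a relative of the subunit Ndufa12 that joins a late assembly stage, had 16.6, 17.2 and 16.2 FPKM in KIKO activated libraries, against 21.2, 22.9 and 25 FPKM in KI activated libraries (difference -0.44 ± 0.1, SE). Ndufaf1, which acts in building the membrane arm, had 6.66, 5.91 and 6 FPKM in KIKO activated and 7.95, 8.32 and 10.2 FPKM in KI activated libraries (difference -0.44 ± 0.13, SE). In none of these did the groups overlap, which the choice of genes shown required. Ndufaf1 lost its call with an equal sum and without KIKO activated 2, KIKO activated 3 or KI activated 3, and Ndufaf7 in 5 alternatives. The Ndufaf4 difference turned to 0.65 when the smaller of summed starts and summed ends was taken as the level.

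Complex II links the chain to the tricarboxylic acid cycle and has no mitochondrially encoded part. Sdha, its flavoprotein, had 65.1, 59.6 and 65 FPKM in KIKO activated libraries, against 78.9, 76.1 and 81.2 FPKM in KI activated libraries (difference -0.31 ± 0.09, SE, adjusted p = 0.0122). Sdhb, the iron-sulfur subunit, had 56.3, 55.8 and 48.9 FPKM in KIKO activated and 82.8, 86.5 and 89 FPKM in KI activated libraries (difference -0.67 ± 0.13, SE, adjusted p = 0.00131). Sdhd, a membrane anchor, had 28.1, 31.6 and 24.7 FPKM in KIKO activated libraries, against 39.2, 44.8 and 49.6 FPKM in KI activated libraries (difference -0.64 ± 0.11, SE, adjusted p = 0.00082). These 3 were lower in every KIKO activated library than in any KI activated library. Sdha lost its call with quantile normalization, at -0.12, and with rescaling to an equal sum. The other anchor, Sdhc, had 17.3, 16 and 16.3 FPKM in KIKO activated and 19.2, 21 and 20.9 FPKM in KI activated libraries and was not called (adjusted p = 0.492). Its SD was 0.709 FPKM in KIKO activated and 1.04 FPKM in KI activated cells, and 16.2 FPKM in KIKO naive cells, and the fit shares one spread over the groups.

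Complex III passes electrons from ubiquinol to cytochrome c. Of its 6 tested genes 1 (16.7%, beside 19.3% of all loci) was lower in KIKO activated cells. This was Uqcr11, a small accessory subunit, with 36.7, 39.6 and 29 FPKM in KIKO activated libraries, against 65.3, 73.9 and 85 FPKM in KI activated libraries. The groups were well apart, and the difference was -1.07 ± 0.22 (SE, adjusted p = 0.00248). The core proteins Uqcrc1 and Uqcrc2 were not called, at -0.2 and -0.01. Uqcrc1 was uneven within groups, at 204, 107 and 86.5 FPKM in KIKO activated and 110, 214 and 122 FPKM in KI activated libraries. The 2 high libraries list a transcript end of 167 FPKM (KIKO activated 1) and 162 FPKM (KI activated 2) that lies at or below 1.35 FPKM in every other library.

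Complex IV, cytochrome c oxidase, held genes that moved both ways. Of 11 tested, 5 were lower in KIKO activated cells and 2 were higher. Cox5a, a matrix-facing subunit, had 58.7, 60.9 and 55.4 FPKM in KIKO activated libraries, against 86.4, 91.2 and 115 FPKM in KI activated libraries (difference -0.72 ± 0.12, SE, adjusted p = 0.00042). Cox7b had 94.3, 92.8 and 71.9 FPKM in KIKO activated and 134, 141 and 147 FPKM in KI activated libraries (difference -0.7 ± 0.11, SE, adjusted p = 0.0004). Cox6b1, which faces the intermembrane space where cytochrome c docks, had 60.5, 51.7 and 56.1 FPKM in KIKO activated libraries, against 80.7, 82.5 and 90.6 FPKM in KI activated libraries (difference -0.59 ± 0.14, SE, adjusted p = 0.0052). The groups did not overlap for any of the 3, which the choice of genes shown required. With the smaller of summed starts and summed ends as the level, Cox7b turned to 1.98. Cox6c and Cox6a1 were also lower, at -0.55 and -0.46.

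Cox6b2, the isoform of Cox6b1 known from testis, was higher in KIKO activated cells. It had 4.44, 5.71 and 4.8 FPKM in KIKO activated libraries, against 1.07, 1.51 and 0.865 FPKM in KI activated libraries, 0.88, 0 and 0.521 FPKM in KIKO naive libraries and 0.692, 1.05 and 0 FPKM in KI naive libraries. All 3 KIKO activated libraries stood above the other 9. The difference in activated cells was 1.48 ± 0.3 (SE, adjusted p = 0.00179), and with a pseudocount of 0.1 it was 2.05 with an adjusted p of 0.105. Among the other isoforms restricted to certain tissues, Cox4i2 (lung) reached 0.497 FPKM in one KI activated library, and the Cox7a1 locus (heart and muscle) lay between 0 and 1.74 FPKM and was not called. Ndufa4l2, a relative of Ndufa4 induced by low oxygen, was listed in KIKO activated 2 alone, at 0.172 FPKM.

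Cox7a2l, also known as Scaf1, joins complex III to complex IV in supercomplexes. It fell with activation, against the direction of most of the chain. Its level was 162, 126 and 180 FPKM in KIKO activated, 75.5, 64.5 and 84.4 FPKM in KI activated, 265, 323 and 254 FPKM in KIKO naive and 231, 228 and 297 FPKM in KI naive libraries. Every KIKO activated library was above every KI activated one, and both naive groups were above both activated groups. The difference between genotypes was 1.04 ± 0.16 in activated cells (SE, adjusted p = 0.00029), and it kept this direction and the call under every alternative run. The gene lies at chr17:83809671-83821759 on the minus strand (GRCm39).

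Ndufa6, a complex I subunit that binds the acyl carrier protein Ndufab1, had the same order of group means with smaller differences. It had 225, 183 and 200 FPKM in KIKO activated, 171, 156 and 160 FPKM in KI activated, 254, 277 and 259 FPKM in KIKO naive and 224, 222 and 271 FPKM in KI naive libraries. The lowest KIKO activated library, at 183 FPKM, lay above the highest KI activated one, at 171 FPKM. The difference in activated cells was 0.32 ± 0.1 (SE, adjusted p = 0.029). It lost the call without KIKO activated 1 (0.24, adjusted p = 0.125), and also without KIKO activated 3, KI activated 2 or KI activated 3, and with median-ratio scaling (0.26, adjusted p = 0.0601).

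**Figure D3:**
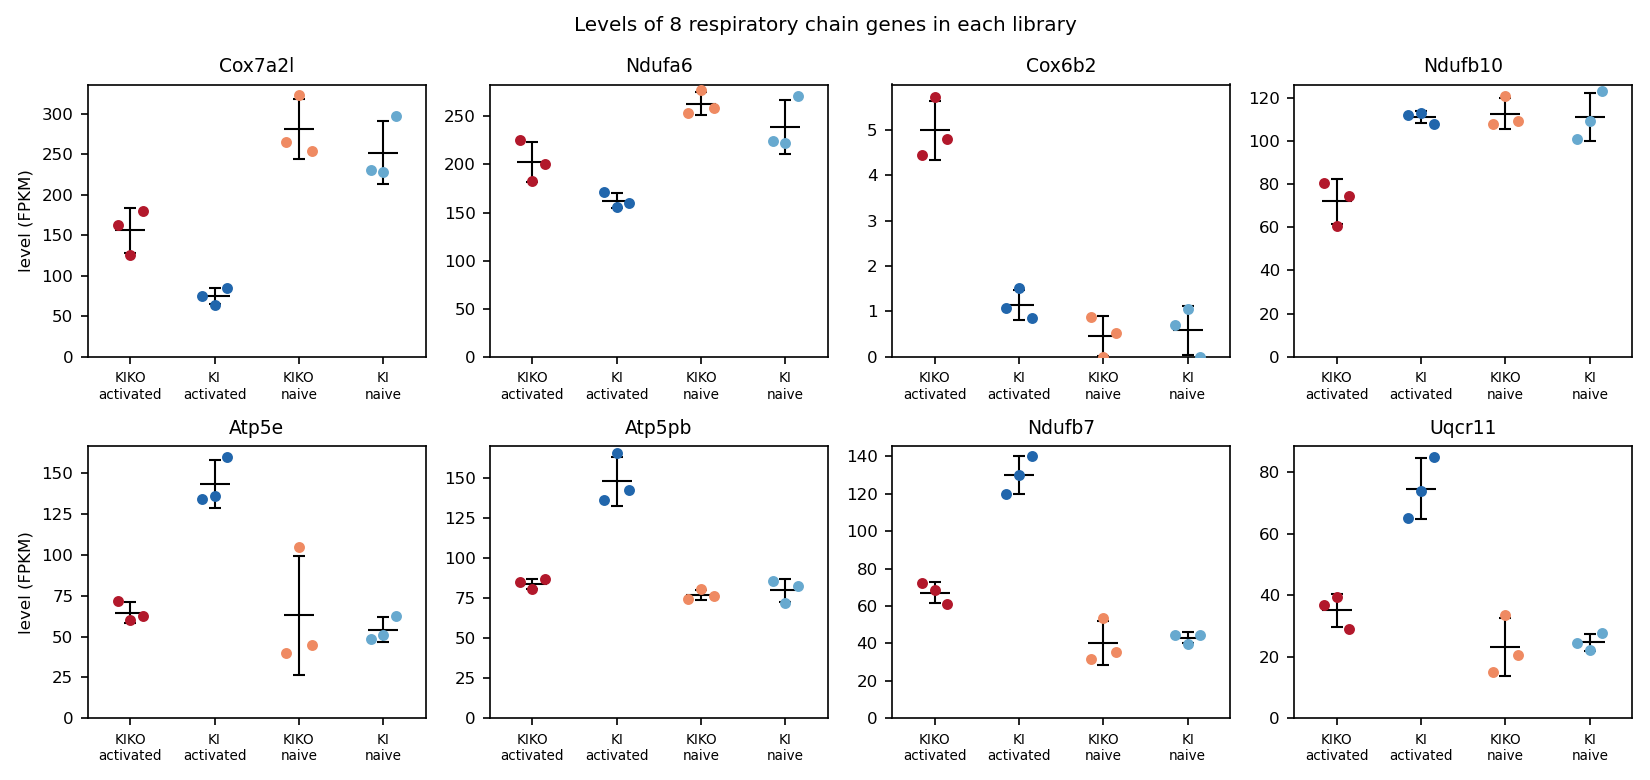
Level in FPKM of 8 members in each library, with the mean and SD of 3 libraries per group. Cox7a2l and Ndufa6 have lower means in activated than in naive cells, Cox6b2 stands apart in KIKO activated cells at 4.44 to 5.71 FPKM, and Ndufb10 is lower in KIKO activated cells than in the other 3 groups.

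In naive cells 3 of the 83 genes were higher and none was lower in KIKO than in KI cells, while 6.46% of all loci were called higher and 3.9% lower. The share of members called was thus below that of all loci, and the median difference was 0.01 over the members and 0.05 over all loci. Ndufa10, a complex I membrane arm subunit related to nucleoside kinases, had 37.2, 40.5 and 37.9 FPKM in KIKO naive libraries, against 27.2, 25.4 and 28.3 FPKM in KI naive libraries (difference 0.5 ± 0.11, SE, adjusted p = 0.0138). Cox5b, the zinc-binding subunit of complex IV, had 120, 75.3 and 64.9 FPKM in KIKO naive libraries, against 49.4, 51 and 47.4 FPKM in KI naive libraries (difference 0.75 ± 0.17, SE, adjusted p = 0.0174). Sdhc had 45.6, 13.3 and 27.1 FPKM in KIKO naive libraries, against 9.86, 10.9 and 12.7 FPKM in KI naive libraries (difference 1.13 ± 0.3, SE, adjusted p = 0.0342). In each of the 3 the groups did not overlap, with KIKO naive 1 the highest for Cox5b and Sdhc.

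None of the 3 naive calls held under every alternative run. Without KI naive 1, or without KI naive 3, 1 member was higher. The Sdhc difference lay in its transcript start: its end event of 3042 bases had 14.1, 13.3 and 11.3 FPKM in KIKO naive and 9.86, 10.9 and 12.7 FPKM in KI naive libraries. With the smaller of summed starts and summed ends as the level the Sdhc difference was 0.2 (adjusted p = 0.373). Without KIKO naive 2 there was 1 member lower in KIKO naive cells. Complex V, with 13 lower genes in activated cells, had none called in naive cells, where its median was -0.07.

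Activation raised most of the chain in KI cells. Of the 83 genes, 71 (85.5%) were higher and 2 were lower in activated than in naive KI cells, with 32.2% and 29.5% of all loci called in these directions. All 16 complex V genes, the 7 listed complex I core subunits and 7 of the 8 assembly factors were higher. The median difference was 0.94 over the members and -0.01 over all loci. The 2 lower genes were Cox7a2l, at -1.74 ± 0.16 (SE, adjusted p = 1.9e-06), and Ndufa6, at -0.55 ± 0.1 (SE, adjusted p = 0.00058).

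Among the largest rises in KI cells, Cox5b had 224, 230 and 251 FPKM in KI activated libraries, against 49.4, 51 and 47.4 FPKM in KI naive libraries (difference 2.23 ± 0.17, SE, adjusted p = 4.9e-07). Atp5g1, one of the genes for the c subunit that forms the rotating ring of ATP synthase, had 26.9, 26.1 and 16.1 FPKM in KI activated libraries, against 1.57, 1.41 and 14.8 FPKM in KI naive libraries (difference 2.35 ± 0.56, SE, adjusted p = 0.00302). Its value of 14.8 FPKM in KI naive 3 comes from a single start, while the transcript end there had 1.06 FPKM. Atp5g3, which encodes the same mature c subunit, had 121, 133 and 157 FPKM in KI activated libraries, against 54.2, 50.9 and 49.1 FPKM in KI naive libraries (difference 1.39 ± 0.13, SE). Ndufaf4 rose by 1.69 ± 0.15 (SE) and Ndufb6, of the complex I membrane arm, by 1.76 ± 0.17 (SE). The 10 genes that were not called were Ndufaf3, Ndufa2, Ndufb10, Ndufb11, Ndufb2, Sdha, Uqcr10, Uqcrh, Cox6b2 and Cox7a1.

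In KIKO cells the same comparison called 46 members (55.4%) higher and 3 lower, with 25.1% and 22.2% of all loci called in these directions. The median difference was 0.43 over the members and 0 over all loci. Of 38 complex I subunits 17 were higher, of 11 complex IV genes 9, and of 16 complex V genes 9. Complex I core subunits had 2 of 7 higher (Ndufs8 and Ndufv2), against all 7 in KI cells. Ndufv2 had 60.3, 33.3 and 32.1 FPKM in KIKO activated libraries, but its transcript end had 8.03 FPKM in KIKO activated 1. With the smaller of summed starts and summed ends as the level, the Ndufv2 difference changed sign. The largest rises were those of Atp5g1 at 2.16 ± 0.56, Cox6b2 at 2.07 ± 0.3, Ndufb6 at 1.31 ± 0.17 and Ndufa12 at 1.23 ± 0.22 (SE). Without the 2 libraries high in myeloid genes, 44 were higher and 3 lower.

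Cox7a2l (-0.85 ± 0.16, SE), Ndufa6 (-0.38 ± 0.1, SE) and Ndufb10 (-0.64 ± 0.11, SE) were lower in activated than in naive KIKO cells. Ndufb10, a membrane arm subunit, had 80.7, 60.6 and 74.7 FPKM in KIKO activated, 112, 113 and 108 FPKM in KI activated, 108, 121 and 109 FPKM in KIKO naive and 101, 109 and 123 FPKM in KI naive libraries. All 3 KIKO activated libraries were below the other 9, and the KI groups overlapped. Uqcrh, the hinge protein of complex III, was not called in any comparison.

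**Figure D4:**
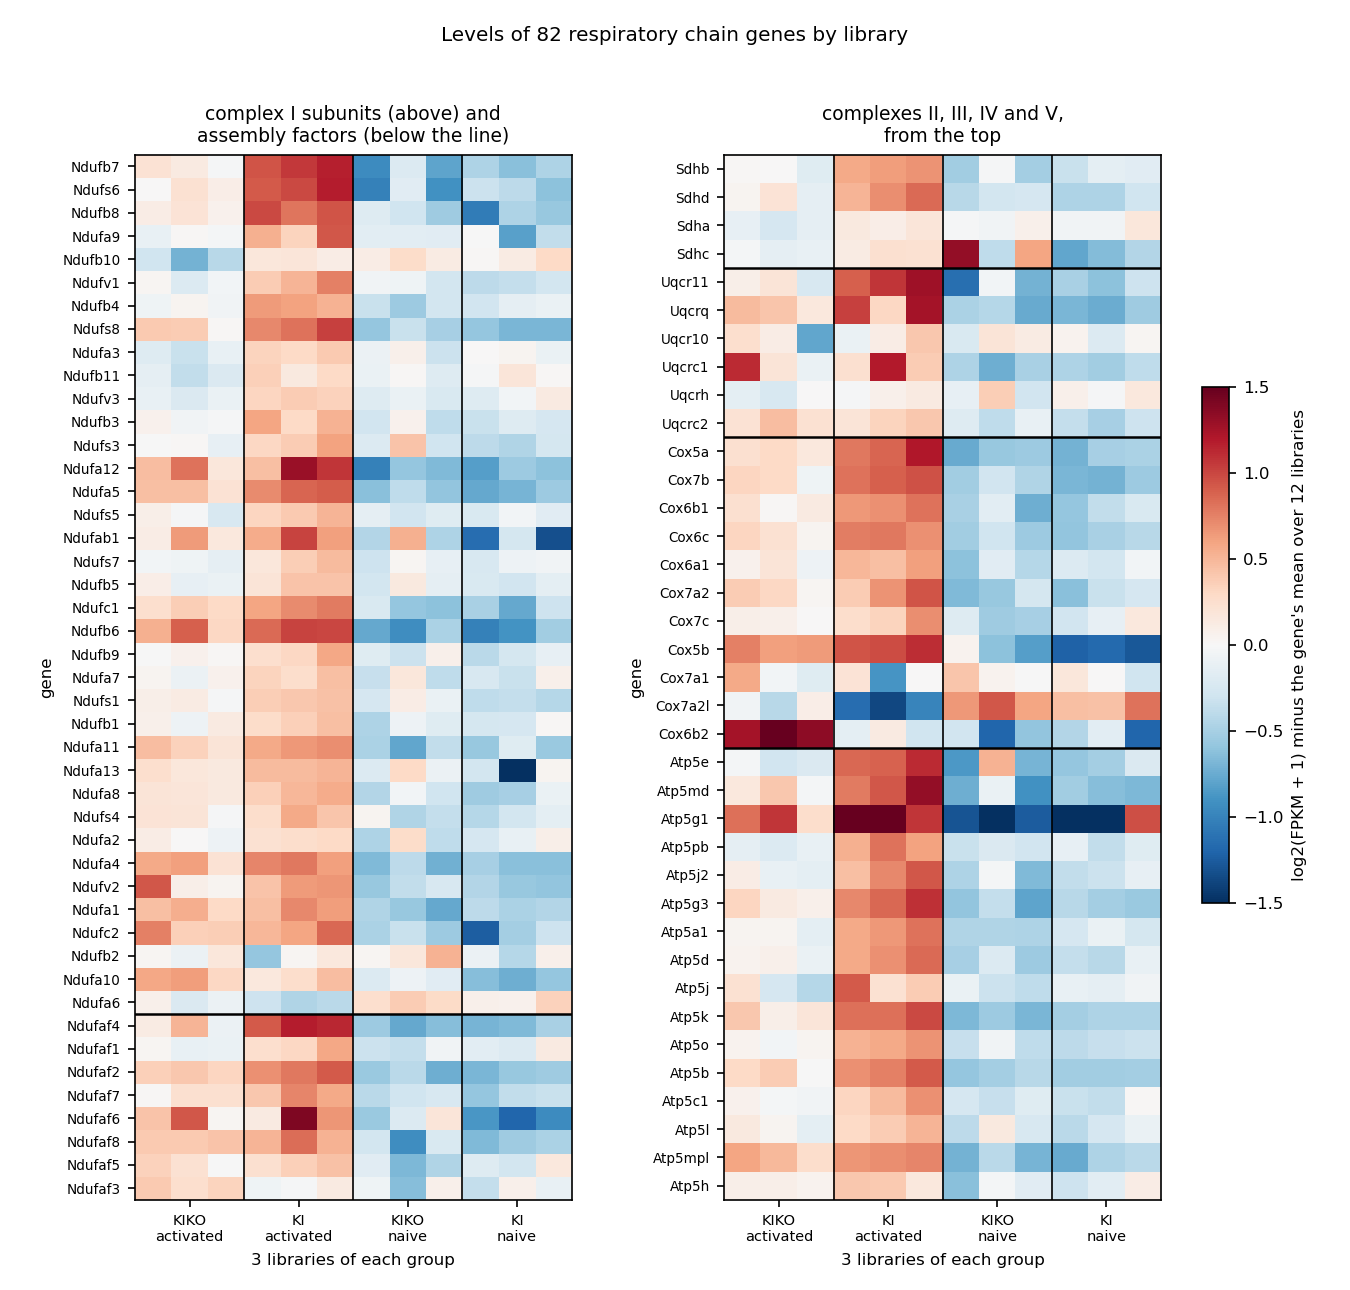
Heat map of 82 members, each row a gene and each column a library, coloured by log2(FPKM + 1) minus the gene's mean over the 12 libraries. Most rows are highest in the 3 KI activated libraries and lowest in the naive libraries, with KIKO activated libraries in between; Cox7a2l and Ndufa6 run the other way.

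By calls, 44 members were higher with activation in both genotypes, 27 in KI cells alone, and 2 in KIKO cells alone (Cox6b2 and Ndufaf3). These comparisons share libraries with the genotype comparisons above, and a call in one genotype does not show a difference between genotypes, which the interaction tests. Of the 71 members called higher in KI cells, 70 (98.6%) had a smaller difference in KIKO cells, with medians of 0.47 in KIKO and 1.03 in KI cells. Of the 3135 loci called higher in KI cells over the whole table, 2668 (85.1%) had a smaller difference in KIKO cells, with medians of 0.5 in KIKO and 0.93 in KI cells. Both sets were chosen by their response in KI cells, so these shares are a description. On the first principal component of all tested loci, which held 58.9% of the variance, KIKO activated libraries lay at 28.5, 40.9 and 11.5, against 47, 56.9 and 57.1 for KI activated libraries and -42.4 to -38.9 for the 6 naive libraries.

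**Figure D5:**
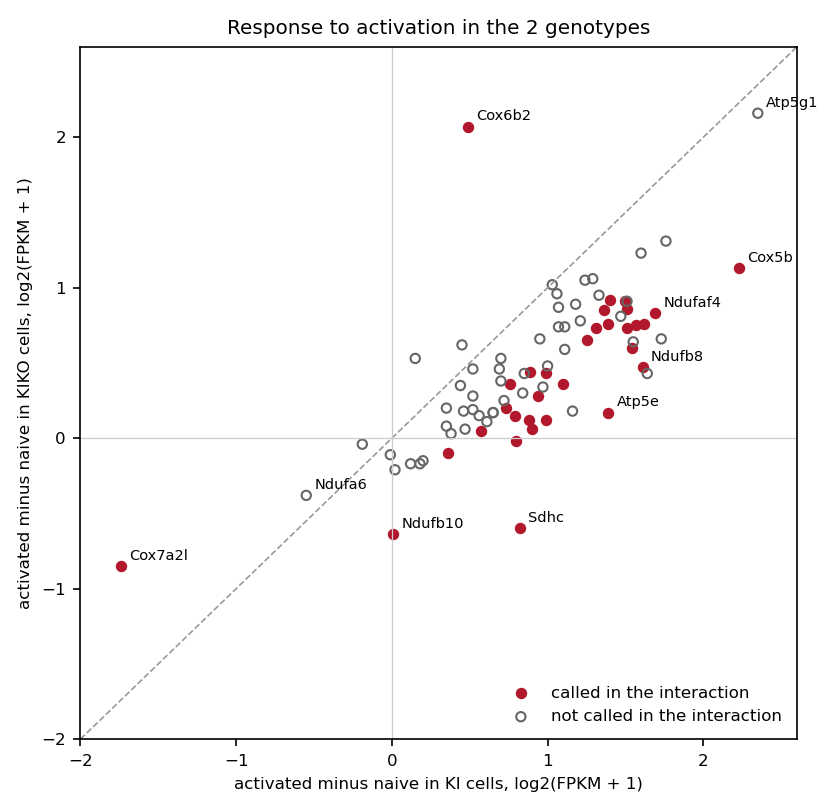
Difference between activated and naive cells in KIKO (vertical) against KI (horizontal) for the 83 tested members, on the log2(FPKM + 1) scale; the dashed line marks equal responses. Filled points passed the interaction test; all but Cox7a2l and Cox6b2 of them lie below the line.

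The interaction, the KIKO response minus the KI response, was called for 32 members: 30 (36.1%) below 0 and 2 above, against 11.6% and 8.99% of all loci. The median was -0.46 over the members and -0.01 over all loci. By complex, the 30 were 13 complex I subunits, 2 assembly factors, 2 of complex II, 4 of complex IV and 9 of complex V, and none of the 6 complex III genes was called. Ndufb8 (-1.14 ± 0.2, SE, adjusted p = 0.00275), Cox7b (-0.94 ± 0.16, SE, adjusted p = 0.00214), Ndufv1 (-0.84 ± 0.16, SE, adjusted p = 0.00376) and Atp5pb (-0.75 ± 0.14, SE, adjusted p = 0.00312) had the smallest p-values. The 2 above 0 were Cox7a2l, at 0.89 ± 0.22 (SE, adjusted p = 0.0163), and Cox6b2, at 1.58 ± 0.42 (SE, adjusted p = 0.0203). Counts below 0 were 18 without KI naive 1, 18 without KI naive 2, 18 without KIKO activated 3 and 14 without KI activated 3, and 25 without both libraries high in myeloid genes, where Cox6b2 also lost its call (1.24, adjusted p = 0.0614). Its interaction was lost as well without KI naive 2 (adjusted p = 0.0518) and without KI activated 3 (adjusted p = 0.0538), and with a pseudocount of 0.1 (2.24, adjusted p = 0.268). Of the 32, 9 were called under every alternative run.

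Related genes outside the naming rule were read from 9 lists. The electron carriers and partners of complex III had 3 of 4 tested lower in KIKO activated cells and none higher, beside 19.3% and 20.7% of all loci. Cycs, cytochrome c itself, whose locus name could not be decided by exon lengths, averaged 18.1 ± 2.37 FPKM in KIKO activated and 35.3 ± 4.75 FPKM in KI activated cells (SD, n = 3 each; difference -0.93 ± 0.14, SE, adjusted p = 0.00033). Cyc1, the cytochrome c1 of complex III, averaged 32.6 ± 3.95 FPKM and 52 ± 2.68 FPKM in the same groups (SD, n = 3 each; difference -0.66 ± 0.12, SE, adjusted p = 0.00109). None of the 13 mitochondrially encoded subunits was listed under the names searched, so they could not be tested.

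The tricarboxylic acid cycle and pyruvate dehydrogenase genes, which supply the NADH and succinate, had 10 of 18 lower and 1 higher in KIKO activated cells, beside 19.3% and 20.7% of all loci. Fh1, fumarase, averaged 12.5 ± 0.735 FPKM in KIKO activated and 25.1 ± 2.77 FPKM in KI activated cells (SD, n = 3 each; difference -0.95 ± 0.1, SE, adjusted p = 2.7e-05), and Idh3a, of the NAD-dependent isocitrate dehydrogenase, 21.7 ± 3.76 FPKM and 42.4 ± 6.31 FPKM (SD, n = 3 each). The higher one was Pdhx, a binding protein of the pyruvate dehydrogenase complex, with 13.4 ± 2.11 FPKM in KIKO activated and 7.42 ± 0.275 FPKM in KI activated cells (SD, n = 3 each; difference 0.76 ± 0.12, SE, adjusted p = 0.00042). In KI cells 17 of the 18 rose and 1 fell with activation, and in KIKO cells 11 rose and 1 fell; of all loci 32.2% rose in KI and 25.1% in KIKO cells.

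Of the 37 assembly factors other than the Ndufaf genes, 6 were lower and 3 higher in KIKO activated cells, shares no larger than the 19.3% and 20.7% of all loci, with a median of -0.17. Uqcc2, which is needed to make the cytochrome b of complex III, stood out at 17.7 ± 2.77 FPKM in KIKO activated and 67.2 ± 6.65 FPKM in KI activated cells (SD, n = 3 each; difference -1.87 ± 0.17, SE, adjusted p = 6.9e-06). Its naive levels were 13.8 ± 3.58 FPKM in KIKO and 13.4 ± 1.58 FPKM in KI cells (SD, n = 3 each). Fmc1, an assembly factor of ATP synthase whose locus name was also undecided, was lower at -1.21 ± 0.19 (SE, adjusted p = 0.00033). Coenzyme Q synthesis genes had 1 of 10 lower (Coq9) and 2 higher (Coq6 and Coq10b). Iron-sulfur cluster genes had 3 of 13 lower and 1 higher, and the locus of the higher one matched another gene better by exon and intron lengths. These counts lie near or below the shares of all loci. Of the carriers that move ADP, ATP and phosphate, with the VDAC pores, 1 of 5 was lower and 1 higher, near the shares of all loci. The lower one was Slc25a5, an ADP/ATP carrier, with 126 ± 13.6 FPKM in KIKO activated and 370 ± 50.3 FPKM in KI activated cells (SD, n = 3 each; difference -1.54 ± 0.13, SE, adjusted p = 4.6e-06).

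Of 10 regulators known to act on respiratory chain genes, 3 were lower and none was higher in KIKO activated cells, where 19.3% of all loci were lower. Myc averaged 35.4 ± 8.34 FPKM in KIKO activated and 101 ± 16.6 FPKM in KI activated cells (SD, n = 3 each; difference -1.5 ± 0.17, SE, adjusted p = 3.6e-05), and Pprc1, a coactivator of the PGC-1 family, 18.9 ± 2.05 FPKM and 30.4 ± 2.53 FPKM (SD, n = 3 each; adjusted p = 0.00196). Ppargc1b was the third. Nrf1, Gabpa and Yy1 were not called in this comparison, at -0.04, 0.21 and 0.14. Of the genes for mitochondrial DNA upkeep and transcription 5 of 13 were lower and none was higher, beside 19.3% and 20.7% of all loci, among them Tfam (11.9 ± 0.0974 FPKM in KIKO activated and 17 ± 0.844 FPKM in KI activated cells, SD, n = 3 each) and Top1mt (7.47 ± 0.985 FPKM and 14.8 ± 3.03 FPKM).

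Levels were deposited per transcript event, and the shares of some exon and start events differed between activated and naive cells. A start here is a first exon with both its ends, so different starts can begin at the same base. In Ndufv3, which has an alternative long exon, the event that keeps the 1092-base exon made up 37.5 ± 4.89% of the level in KIKO activated, 30 ± 0.258% in KI activated, 65.9 ± 8.75% in KIKO naive and 49.9 ± 11.1% in KI naive cells (SD, n = 3 each). The activated libraries, at 29.8 to 42.5%, overlapped the naive ones, at 41.5 to 72.1%, by 1 library on either side. The paired event that skips it ran from 57.5 to 70.2% in activated and from 26 to 40.5% in naive libraries, with no overlap. In Atp5g1 a start of 114 bases made up 59.5 ± 9.1% of the level in KIKO activated and 58.1 ± 19.2% in KI activated cells, against 8.74 ± 8.36% in KIKO naive and 7.81 ± 13.5% in KI naive cells (SD, n = 3 each). Its FPKM was 8.47, 10.6 and 4.29 in KIKO activated and 19.1, 17.6 and 5.81 in KI activated libraries. It was at most 0.401 in any naive library. That start and the one of 44 bases both begin at base 95966496 and differ in where the first exon ends. At the Ndufb2 locus, which is shared with Adck2, a start of 161 bases made up 51.5 to 71.7% of the level in activated libraries. In naive libraries it made up 17.7 to 43.3%. A start of 1334 bases made up 27.5 to 47.3% in activated and 53.5 to 81.8% in naive libraries. These starts lie far apart, at 39569486 and 39550807, and which gene each belongs to was not checked. The shares and the locus level may thus mix both genes.

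Between genotypes, the shares of the Ndufaf1 starts differed. They begin at bases 119493302 and 119493301 on the minus strand and differ in where the first exon ends. A start of 42 bases made up 65 ± 8.55% of the level in KIKO activated and 37.9 ± 6.74% in KI activated cells, and 69.1 ± 11.3% in KIKO naive and 39.7 ± 2.17% in KI naive cells (SD, n = 3 each). Each KIKO library, at 55.5 to 79%, was above each KI library, at 31.5 to 44.9%. Ndufb1 listed an upstream start of 285 bases in activated cells only, at 45.2, 73.7 and 2.44% of the level in KIKO activated and 2.49, 10.9 and 11.1% in KI activated libraries. The KIKO libraries do not move together there. These shares were picked by size and carry no test.

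The names of the loci were checked against exon and intron lengths of GENCODE M21 genes, since the deposited files join some neighbours into one locus. Of the 87 members, 76 matched their own gene, 5 shared a locus with another gene (Atp5o with Donson, Ndufb8 with Sec31b, Ndufb9 with Rnf139, Ndufb2 with Adck2, and Cox7a1) and 6 could not be decided (Cox6a1, Cox7a2, Cox7c-ps1, Ndufa13, Ndufb11 and Sdhb). The start of Atp5o itself, the OSCP subunit of ATP synthase, had 97, 91.4 and 92.7 FPKM in KIKO activated libraries, against 132, 137 and 152 FPKM in KI activated libraries, apart from the second start of the locus. At the Ndufb9 locus the starts moved in opposite directions. The Ndufb9 start had 50.8, 54.3 and 51.9 FPKM in KIKO activated and 65.2, 68.5 and 83.8 FPKM in KI activated libraries, and the other start had 8.56, 8.17 and 8.04 FPKM in KIKO activated and 5.87, 5.71 and 5.22 FPKM in KI activated libraries. Several of these genes have near-identical processed pseudogenes elsewhere in the genome, and no source used here says how shared reads were assigned, so the levels of short subunits are uncertain to that extent.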

How the data were processed

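Poly(A) RNA (15 ng total RNA, a stranded SMART-Seq kit) of 12 libraries was measured, per the labels' protocols. FastQC 0.11.9, cutadapt 2.9 and HISAT2 2.2.0 are named in the submitters' processing notes, with 2 mouse builds; coordinates in the files are those of GRCm39. The authors deposited FPKM per transcript event; the program that made them was not given in the sources used here. Zeros are not listed and depth is unknown, so no counting interval can be given.

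Duplicate events were dropped. A locus level was the largest of summed start FPKM, summed end FPKM and the largest single event, with absent loci at 0; of several loci of a symbol, the one with the highest mean was kept. Levels were tested with limma 3.58.1 (R 4.3.3) on log2(FPKM + 1), with 1 mean per group, a trended prior and Benjamini-Hochberg adjustment over all 9743 loci with FPKM of at least 1 in at least 3 libraries; calls are at an adjusted p under 0.05. The fit was tested on simulated data. Some genes that enter the counts are not reported here by name. Members and lists were chosen with earlier results of these data known. All members could be named; values per library are given for the 3 largest called differences per complex and direction (a group mean of 5 FPKM or more, groups not overlapping), members called against their complex, complex II, tissue-restricted isoforms, and up to 3 genes per related list. Alternatives covered the pseudocount, filter, scaling, variance trend, level, replicate block and each library left out. Promoters are RefSeq windows (GRCm38.p6), searched on both strands.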

Additional observations from a re-analysis of the deposited data

Results flagged for a closer look

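The response to activation differed between KIKO and KI cells in 32 members, by the test of the difference itself (limma, interaction term, adjusted p under 0.05). Each value below is the KIKO response minus the KI response on the log2(FPKM + 1) scale.

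In 2 members the value was above 0: Cox7a2l at 0.89 and Cox6b2 at 1.58. Among the complex I subunits it was -1.14 for Ndufb8, -0.88 for Ndufa9, -0.84 for Ndufv1, -0.82 for Ndufb7, -0.81 for Ndufs3, -0.77 for Ndufs8, -0.65 for Ndufb10, -0.64 for Ndufs1, -0.59 for Ndufa5, -0.53 for Ndufb3, -0.52 for Ndufb5, -0.46 for Ndufa3 and -0.4 for Ndufb4. The assembly factors Ndufaf4 and Ndufaf2 stood at -0.86 and -0.48. In complex II, Sdhc stood at -1.42 and Sdhd at -0.74; Sdhd was called under all 23 alternatives, while Sdhc lost its call in 10, among them 8 that leave out 1 library, and stood at -0.48 with the smaller of summed starts and summed ends (adjusted p = 0.0829). Of the 32, 9 were called under every alternative run. In complex IV, the values were -1.1 for Cox5b, -0.94 for Cox7b, -0.66 for Cox5a and -0.59 for Cox6c. In complex V, they were -1.22 for Atp5e, -0.86 for Atp5md, -0.75 for Atp5pb, -0.66 for Atp5o, -0.63 for Atp5g3, -0.57 for Atp5b, -0.56 for Atp5d, -0.51 for Atp5k and -0.45 for Atp5a1. For Sdhc, Atp5e and Cox5b a KIKO naive library stood high, with 45.6 FPKM of Sdhc and 120 FPKM of Cox5b in KIKO naive 1 and 105 FPKM of Atp5e in KIKO naive 2.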

How the results depend on the processing

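Of the members called, 24 of 49 (KIKO against KI, activated), 0 of 3 (naive), 25 of 49 (activation, KIKO), 52 of 73 (activation, KI) and 9 of 32 (interaction) were called in the same direction under every alternative run. With the smaller of summed starts and summed ends, an alternative chosen after seeing the data, 1 member was higher in naive and 29 lower in activated KIKO cells, 30 rose with activation in KIKO cells and 11 had a negative interaction. Under it the genotype difference in activated cells turned to 0.98 for Atp5j, 1.98 for Cox7b, 0.65 for Ndufaf4, 0.49 for Ndufb9, 0.55 for Ndufs7 and 0.26 for Mterf3. The KIKO activation difference turned to -3.02 for Atp5d, -0.2 for Ndufa4, -1.14 for Ndufaf4, -0.2 for Ndufv2 and -0.48 for Uqcrc2. The KI activation difference turned to -1.03 for Atp5j, -3.48 for Cox7b, -1.06 for Ndufaf4, -0.83 for Ndufb9 and -0.97 for Ndufs7, and the interaction of Cox7b to 3.63. With starts only, Ndufb11 turned to 0.69 and Mterf3 to 0.26 in activated cells, and the interaction of Atp5d to 0.18. The cause was not tested. With a minimum of 0.5 log2, 29 were lower in activated KIKO cells, which follows from the stricter rule. Quantile normalization left 13 negative interactions. An equal sum gave 5 higher in naive KIKO cells; it moved the median of all loci to 0.15 in activated and 0.131 in naive KIKO against KI cells, to -0.087 in KIKO and -0.127 in KI activation, with members at -0.3, 0.11, 0.33 and 0.79. Positive interactions numbered 1 with log2(FPKM + 0.1), with FPKM of at least 5, with starts only, and without both KIKO libraries numbered 2, which also gave 1 lower in naive KIKO cells. Leaving out each library gave 1 to 3 higher and 0 to 1 lower in naive KIKO cells, 2 to 3 higher and 37 to 50 lower in activated KIKO cells, 39 to 54 higher in KIKO and 68 to 72 in KI activation, and 1 to 2 positive and 14 to 31 negative interactions. Loci matching their own gene gave 40 lower and 3 higher in activated KIKO cells. Deviations of same-numbered libraries correlated at -0.0361 to 0.121, not all over 0.1, so the numbers were not taken as pairs. KI naive and KI activated libraries each correlated best with their own number among these KI pairs (0.0555, 0.0792 and 0.102), which KIKO naive 1 and KIKO activated 1 (-0.00438) did not, and both KIKO libraries numbered 2 were high in myeloid genes. With the replicate block, 4 and 0 were higher and lower in naive KIKO cells, 3 and 47 in activated KIKO cells, 46 and 3 in KIKO activation, 71 and 2 in KI activation, and 2 and 26 in the interaction. Depth is unknown, so the limit for low members such as Cox6b2 cannot be given.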

Other observations

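Further loci carry other names in the files but match ATP synthase genes by exon and intron lengths, and they lie outside the naming rule. The locus named Mir688 matched Atp5g2, a gene for the c subunit, in 2 introns and 4 exons. It had 35.2, 41.9 and 35.2 FPKM in KIKO activated libraries, against 44.9, 52.7 and 58 FPKM in KI activated libraries, and the difference of -0.46 was not called (limma, adjusted p = 0.123). Activation raised it by 0.6 in KIKO cells (adjusted p = 0.0434) and by 1.06 in KI cells (adjusted p = 0.0013). The locus named Dmac2l matched Atp5s, with 2.58, 2.69 and 1.77 FPKM in KIKO activated libraries, against 1.24, 1.39 and 0.953 FPKM in KI activated libraries. It was higher in KIKO activated cells by 0.6 (adjusted p = 0.0386).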
